A study of Mus musculus and Mus musculus
Rattus norvegicus with 30 samples.

Results

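The genes described here are 10 subunits of the Polycomb repressive complexes: Ezh1, Ezh2, Eed, Suz12, Jarid2 and Mtf2 of Polycomb repressive complex 2 (PRC2), and Cbx2, Cbx7, Rnf2 and Pcgf2 of Polycomb repressive complex 1 (PRC1). They were taken by name, with earlier results of these data known, and are 10 of the 19919 genes present in both count tables of mouse embryonic stem cells (mESCs). All 10 also had a row in the mouse and in the rat table of the RMES cells, and all 10 passed the filter on low counts in every fit.

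PRC2 methylates a lysine in the tail of histone H3, with Ezh1 or Ezh2 as the enzyme and Eed and Suz12 as its partners, and accessory subunits such as Jarid2 and Mtf2 guide it to chromatin. PRC1 attaches ubiquitin to histone H2A through Rnf2, built with a Pcgf protein such as Pcgf2, and its Cbx subunits bind the methyl mark left by PRC2. Together they are best known for keeping the Hox genes, which set position along the body axis, silent in pluripotent cells. Cdx2 is a homeodomain transcription factor of the trophoblast, the gut and the posterior embryo, and Hox genes are among its known targets.

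RNA-seq covered 20 mESC libraries in 10 groups of 2. WT cells were compared with cells that overexpressed mouse Cdx2 (mCdx2-OE), rat Cdx2 (rCdx2-OE) or 1 of 7 mutants of rat Cdx2. The mutants carry the mouse state at 3 sites of the DNA-binding domain, singly (rCdx2_R1-OE, rCdx2_R2-OE and rCdx2_R3-OE), in pairs (rCdx2_R12-OE, rCdx2_R13-OE and rCdx2_R23-OE) or all together (rCdx2_R123-OE). All transgenes were Flag-tagged, delivered by lentivirus as stable lines and switched on by doxycycline, and all cells were kept in serum-free N2B27 medium with the inhibitors PD0325901 and Chir99021 and leukaemia inhibitory factor, which hold cells pluripotent. The study describes its comparison as cells before and after doxycycline, while the labels name the controls WT and not an uninduced line. If the WT libraries came from parental cells, line and Cdx2 cannot be told apart in comparisons with WT. RMES cells are rat-mouse allodiploid embryonic stem cells, made by fusing haploid mouse and haploid rat stem cells, and reads were assigned to the mouse or the rat allele. RNA-seq of RMES cells covered 2 WT libraries, 1 mCdx2-OE and 1 rCdx2-OE library, the last pair taken as a single induced group. Nothing states that replicates came from separate cultures, so p-values measure the spread between libraries, which may be technical.

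The WT mESC libraries were the deepest, with 74960057 and 94686029 counts, against 12698443 to 24315929 in the induced libraries. Replicates 1 and 2 were counted in separate runs. Levels are given as CPM, the counts of a gene relative to the size of its library, after scaling by trimmed mean of M values (TMM). Cdx2 itself was at 1.36 and 1.21 CPM in WT and at 37.2 to 147 CPM in the 18 induced libraries. The 8 pluripotency markers summed to 4487 to 4532 CPM in WT, to 3103 to 3449 CPM in mCdx2-OE and rCdx2-OE and to 3956 to 5155 CPM in the mutants, so that these markers were abundant in every group. The 12 proliferation markers summed to 5362 to 5402, 4342 to 4610 and 5303 to 5885 CPM in the same order. The 7 measured fibroblast markers, which feeder cells would bring, summed to 38.1 to 39.0 CPM in WT. Their sum was 16.1 to 19.9 CPM in mCdx2-OE and rCdx2-OE and 2.81 to 7.83 CPM in the mutants. Dcn was at 0 in 17 of the 18 induced libraries. Col1a1 was at 14.8 to 15.1 CPM in WT and 0.83 to 3.24 CPM in induced libraries. Pdgfrb did not follow, at 3.89 to 4.66 CPM in WT and 1.52 to 15.8 CPM in induced libraries. The 6 measured trophoblast markers other than Cdx2 summed to 137 to 139 CPM in WT and 98.6 to 235 CPM over all induced libraries. With Cdx2 included the trophoblast sum was 138 to 140 CPM in WT and 292 to 324 CPM in mCdx2-OE and rCdx2-OE. It was 140 to 267 CPM in the mutants. Cdx2 itself made up 70.4 to 97.9 CPM in mCdx2-OE and rCdx2-OE in replicate 1 and 67.0 to 127 CPM in replicate 2. Primitive endoderm markers summed to 3.61 to 3.77 CPM in WT, 12.7 to 14.7 CPM in mCdx2-OE and rCdx2-OE and 6.76 to 11.9 CPM in the mutants, and neural markers to 110.4 to 111 CPM, 49.6 to 69.6 CPM and 51.6 to 80.5 CPM. These marker levels moved with the groups, and their part in the values below was not tested. In such bulk libraries, fewer cells of a type and less RNA per cell cannot be told apart.

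Sequences of the members were read at the Cdx2 binding sites that stood out at their loci and at the start of the member that changed most. The first pair are stretches of 300 bases around the centre of a Cdx2 ChIP-seq peak, on the plus strand of mm10 (GRCm38), and the capitals mark TTTATG or its reverse complement CATAAA, a core of Cdx2 binding sites that was searched on both strands. The Mtf2 stretch lies at chr5:108093505-108093804 in intron 8 of 15-exon transcript Mtf2-201, within the strongest peak found at any member. The Jarid2 stretch lies at chr13:44743187-44743486 in intron 2 of transcript Jarid2-201. The Eed sequence is that of RefSeq on GRCm38.p6, the 250 bases before the start site on the minus strand (chr7:89980977-89981226), where capitals mark the 12 CpG dinucleotides.
Mtf2, intron 8: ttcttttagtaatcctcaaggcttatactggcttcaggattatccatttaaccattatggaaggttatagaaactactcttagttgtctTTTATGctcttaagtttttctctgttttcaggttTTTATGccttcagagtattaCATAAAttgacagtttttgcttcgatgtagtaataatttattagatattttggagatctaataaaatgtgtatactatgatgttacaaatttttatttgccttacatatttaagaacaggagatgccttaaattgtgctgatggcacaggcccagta
Jarid2, intron 2: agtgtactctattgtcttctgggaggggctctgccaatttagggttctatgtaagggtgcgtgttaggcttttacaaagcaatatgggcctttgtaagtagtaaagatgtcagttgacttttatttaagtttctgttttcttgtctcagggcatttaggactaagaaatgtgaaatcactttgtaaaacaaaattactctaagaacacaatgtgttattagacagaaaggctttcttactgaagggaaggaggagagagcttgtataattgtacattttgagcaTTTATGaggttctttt
Eed, 5′ of the start site: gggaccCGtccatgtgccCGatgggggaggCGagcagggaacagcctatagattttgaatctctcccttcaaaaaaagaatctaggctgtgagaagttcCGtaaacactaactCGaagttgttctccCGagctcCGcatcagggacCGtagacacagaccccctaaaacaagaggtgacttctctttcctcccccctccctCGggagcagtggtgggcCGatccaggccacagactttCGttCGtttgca

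In WT mESCs, the levels of the members per kb of gene model spanned more than an order of magnitude. Eed (77.7 CPM per kb) and Mtf2 (76.7 CPM per kb) were highest and did not differ beyond the spread of their libraries, followed by Suz12 (67.8 CPM per kb), Cbx7 (46.6), Ezh2 (40.7), Jarid2 (35.4), Pcgf2 (28.2) and Rnf2 (26.6). Cbx2 (7.94 CPM per kb) and Ezh1 (5.28 CPM per kb) were lowest, and apart from Eed and Mtf2 no neighbours in this order overlapped between the 2 WT libraries. Averaged over the 18 induced libraries, Mtf2 (99.0 CPM per kb) and Suz12 (77.8 CPM per kb) led the order and Eed followed at 42.9 CPM per kb.

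Across the 9 constructs together, 7 of the 10 members passed the test against WT (edgeR quasi-likelihood test, adjusted p under 0.05), 3 higher and 4 lower. Of all 16000 genes tested, 74.7% passed (35.6% higher and 39.2% lower), so that the share of members was close to that of all genes. Eed, Cbx7, Pcgf2 and Cbx2 fell, while Rnf2, Mtf2 and Jarid2 rose. No member changed over 2-fold, against 26.7% of all genes, and the median log2 fold change of the members was -0.11 against -0.02 for all genes. Under scaling by total counts, which moved the median of all genes from -0.02 to 0.09, the split was 4 higher and 3 lower, against 41.0% and 33.9% of all genes. In single constructs, 6 members passed for mCdx2-OE and for rCdx2-OE (1 higher and 5 lower in each), where 69.7% of all genes (34% higher and 35.8% lower) and 70.6% (34.4% higher and 36.2% lower) passed. For each mutant 6 or 7 members passed, where the share of all genes was 60.8% for rCdx2_R1-OE, 60.9% for rCdx2_R2-OE, 63.7% for rCdx2_R3-OE, 61.7% for rCdx2_R12-OE, 65.5% for rCdx2_R13-OE, 66.5% for rCdx2_R23-OE and 66.8% for rCdx2_R123-OE. Under scaling by total counts the splits of mCdx2-OE and rCdx2-OE became 4 higher and 1 lower, and 3 higher and 1 lower. The split of all genes also moved, to 41.2% higher and 28.2% lower for mCdx2-OE and 41.3% and 28.6% for rCdx2-OE. Without WT replicate 2, the deepest library, fewer members passed over the 9 constructs and for mCdx2-OE. Those fits keep 1 WT library, and the share of all genes in them is not given here. A loss common to all genes thus cannot be told apart. These comparisons share the WT libraries.

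**Figure D1:**
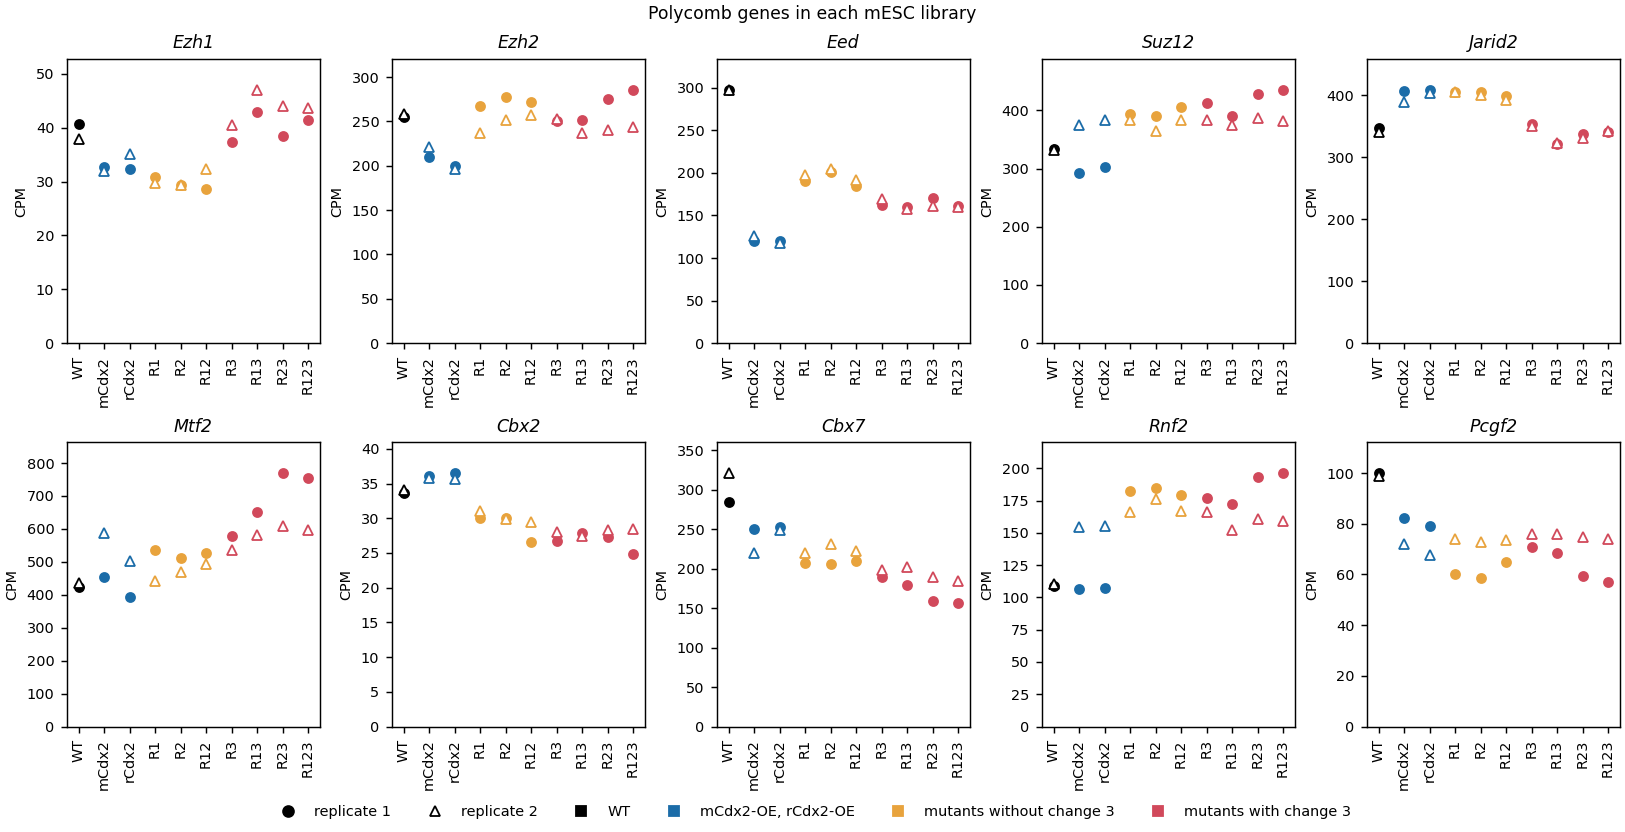
Level of each member in the 20 mESC libraries, in TMM-scaled CPM (y) by group (x), with circles for replicate 1 and triangles for replicate 2. Black marks WT, blue mCdx2-OE and rCdx2-OE, orange mutants without change 3 and red mutants with change 3. Eed lay at 298 and 297 CPM in WT and at no more than 204 CPM in any induced library.

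Eed, the subunit that binds the methyl mark and stimulates the enzyme, had the largest change among the PRC2 core subunits. Its level was 298 and 297 CPM in WT, 120 and 126 CPM in mCdx2-OE, and 120 and 118 CPM in rCdx2-OE. Over the 14 mutant libraries it ranged from 158 to 204 CPM with a median of 170 CPM. All 18 induced libraries lay below both WT libraries, and the 4 libraries of mCdx2-OE and rCdx2-OE lay below all mutants. How many of all genes kept such sets apart was not counted, here or for the members below. Over the 9 constructs Eed fell by 45.7% (log2 fold change -0.88, SE 0.041, adjusted p = 1.3e-11). The fall was 2.42-fold in mCdx2-OE (log2 -1.28, adjusted p = 3.1e-11) and 2.51-fold in rCdx2-OE (log2 -1.33, adjusted p = 1.8e-11), and in the mutants the log2 fold change ran from -0.90 to -0.55, past the test in 7 of 7. Eed was the only member over 2-fold lower in mCdx2-OE, where 15% of all genes were, and in rCdx2-OE, where 15.4% were.

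Ezh2, the main methyltransferase of dividing cells, was at 255 and 258 CPM in WT, at 210 and 221 CPM in mCdx2-OE, and at 200 and 196 CPM in rCdx2-OE. Over the mutants it spanned 237 to 286 CPM, with a median of 252 CPM. The mCdx2-OE and rCdx2-OE libraries were thus below WT and the mutants lay on both sides of it. Ezh2 fell in mCdx2-OE (log2 -0.25, adjusted p = 0.018) and in rCdx2-OE (log2 -0.37), and in none of the 7 mutants did it pass the test. Over the 9 constructs its log2 fold change was -0.07 (adjusted p = 0.355), a value that changed sign under scaling by total counts (0.04).

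Ezh1, the enzyme that prevails in non-dividing cells, was at 40.6 and 38.0 CPM in WT, 32.8 and 31.9 CPM in mCdx2-OE, and 32.4 and 35.1 CPM in rCdx2-OE. In the mutants it ranged from 28.6 to 47.1 CPM (median 38.0 CPM), so that they spread to both sides of WT. It fell in mCdx2-OE (log2 -0.28, adjusted p = 0.011), in rCdx2-OE (log2 -0.22) and in the 3 mutants without change 3 (log2 -0.42 to -0.36). Over the 9 constructs it did not pass the test (log2 -0.14, adjusted p = 0.054), and it did with the replicate run as a block.

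Suz12, a scaffold of PRC2, was at 333 and 332 CPM in WT. It was at 292 and 375 CPM in mCdx2-OE and at 303 and 384 CPM in rCdx2-OE, so that replicate 1 of both lay below WT and replicate 2 above it. In the mutants it ranged from 365 to 436 CPM with a median of 388 CPM, above WT in all 14 libraries. The log2 fold change over the 9 constructs was 0.19 (adjusted p = 0.055), and 2 of 7 mutants passed the test.

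Of the accessory subunits, Jarid2, which helps to bring PRC2 to CpG-rich targets, was at 347 and 341 CPM in WT, 406 and 389 CPM in mCdx2-OE, and 409 and 403 CPM in rCdx2-OE. Its range in the mutants was 321 to 406 CPM (median 352 CPM), overlapping WT. Jarid2 rose over the 9 constructs by 8.02% (log2 0.11, SE 0.042, adjusted p = 0.025), a call that was lost without either WT library. It rose in mCdx2-OE (log2 0.21, adjusted p = 0.0035), in rCdx2-OE (log2 0.24) and in the 3 mutants without change 3 (log2 0.20 to 0.24).

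Mtf2, a Polycomb-like protein that binds CpG-rich DNA, was at 425 and 436 CPM in WT, 453 and 587 CPM in mCdx2-OE, and 395 and 504 CPM in rCdx2-OE. In the mutants it ranged from 443 to 770 CPM with a median of 557 CPM, and 17 of the 18 induced libraries lay above both WT libraries. Mtf2 rose by 27.8% over the 9 constructs (log2 0.35, SE 0.115, adjusted p = 0.011), a call that was also lost without either WT library. Neither mCdx2-OE (log2 0.27, adjusted p = 0.12) nor rCdx2-OE (log2 0.06) passed the test, and the 4 mutants with change 3 did (log2 0.37 to 0.68).

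Among the PRC1 subunits, Cbx7, the chromodomain protein that dominates in pluripotent cells, was at 284 and 321 CPM in WT. It was at 250 and 220 CPM in mCdx2-OE, at 253 and 249 CPM in rCdx2-OE and at 157 to 231 CPM in the mutants (median 200 CPM). All 18 induced libraries lay below both WT libraries. Cbx7 fell by 32.1% over the 9 constructs (log2 -0.56, SE 0.073, adjusted p = 3.3e-06) and passed the test in 7 of 7 mutants (log2 -0.83 to -0.47).

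Pcgf2, the partner of Rnf2 in one form of PRC1, was at 100.05 and 98.9 CPM in WT, 82.1 and 71.9 CPM in mCdx2-OE, and 79.2 and 67.5 CPM in rCdx2-OE. In the mutants it ranged from 56.9 to 75.9 CPM with a median of 72.0 CPM. Every induced library lay below both WT libraries. Pcgf2 fell by 29.6% over the 9 constructs (log2 -0.51, SE 0.101, adjusted p = 0.00026), and in each of the 7 mutants (log2 -0.60 to -0.44).

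Rnf2, the E3 ubiquitin ligase of PRC1, was at 109 and 110.4 CPM in WT, 106 and 154 CPM in mCdx2-OE, and 107 and 155 CPM in rCdx2-OE. In the mutants it ranged from 152 to 196 CPM with a median of 174 CPM. The mutants all lay above WT, whereas mCdx2-OE and rCdx2-OE lay below WT in replicate 1 and above it in replicate 2. Rnf2 rose by 48.4% over the 9 constructs (log2 0.57, SE 0.129, adjusted p = 0.00079) and passed in 7 of 7 mutants (log2 0.56 to 0.72), but not in mCdx2-OE (log2 0.25, adjusted p = 0.20).

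Cbx2, a chromodomain protein able to compact chromatin, was at 33.6 and 34.0 CPM in WT. It was at 36.1 and 35.8 CPM in mCdx2-OE, at 36.5 and 35.6 CPM in rCdx2-OE and at 24.8 to 31.1 CPM in the mutants (median 28.2 CPM). The constructs thus lay on different sides of WT, with the 4 libraries of mCdx2-OE and rCdx2-OE above it and all 14 mutant libraries below. Over the 9 constructs Cbx2 fell by 11.7% (log2 -0.18, SE 0.058, adjusted p = 0.010), a call lost without WT replicate 2. It passed the test in 5 of 7 mutants (log2 -0.34 to -0.15) and had a log2 fold change of 0.09 in both mCdx2-OE and rCdx2-OE (adjusted p = 0.34 in mCdx2-OE).

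Mouse and rat Cdx2 were compared directly. None of the 10 members passed the test between mCdx2-OE and rCdx2-OE, where 0.0188% of genes passed in edgeR. No member had an unadjusted p under 0.05 and none passed with DESeq2. The 95% intervals of the log2 difference between mCdx2-OE and rCdx2-OE ran from -0.34 at the lowest (Rnf2) to 0.51 at the highest (Mtf2). They were narrower for Jarid2 (-0.14 to 0.08) and for Eed (-0.07 to 0.17), and differences within each gene's own interval cannot be told from none. The test over all 9 constructs at once, which 56.9% of genes passed, was passed by 7 members, the others being Suz12 (adjusted p = 0.28), Rnf2 (adjusted p = 0.10) and Pcgf2 (adjusted p = 0.79).

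The 7 mutants differed from mCdx2-OE and rCdx2-OE, a comparison added after the values were seen. Each construct was in a stable line of its own, so mutation and line cannot be told apart in it. In rCdx2_R123-OE, with the mouse state at all 3 sites, Eed was at 161 and 160 CPM, against 120 and 126 CPM in mCdx2-OE. Of the members, 9 passed the test (6 higher and 3 lower in the mutants), where 64% of all genes did (30.6% higher and 33.4% lower), and with scaling by total counts 3 were higher and 4 lower, against 23.1% and 40.0% of all genes. Eed was higher in the mutants by 45.5% (log2 0.54, SE 0.035, adjusted p = 1.3e-09), as were Ezh2 (log2 0.32, adjusted p = 5.4e-05), Rnf2 (log2 0.41), Mtf2 (log2 0.24), Suz12 (log2 0.22) and Ezh1 (log2 0.14), the last 3 of which lost the call without 1 library or another. Cbx2 (log2 -0.35, adjusted p = 6.0e-06), Cbx7 (log2 -0.31, adjusted p = 0.00021) and Jarid2 (log2 -0.15, adjusted p = 0.00078) were lower. Eed, Ezh2 and Cbx2 kept the 2 sets of libraries apart within each replicate run, with log2 ratios of 0.55 and 0.54 for Eed, 0.39 and 0.24 for Ezh2, and -0.40 and -0.30 for Cbx2 in replicates 1 and 2. The share of all genes that kept these sets apart was not counted, and 64% of all genes passed the test. Jarid2 (-0.16 and -0.13) and Ezh1 (0.11 and 0.16) also had like ratios in both runs, with an overlap of libraries in 1 run or both. The runs differed for the rest. The log2 ratio in replicate 1 and in replicate 2 was 0.78 and 0.08 for Rnf2, and 0.53 and -0.04 for Mtf2. Cbx7 gave -0.44 and -0.18, Suz12 0.46 and -0.00, and Pcgf2, which did not pass the test (adjusted p = 0.17), gave -0.37 and 0.10.

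**Figure D2:**
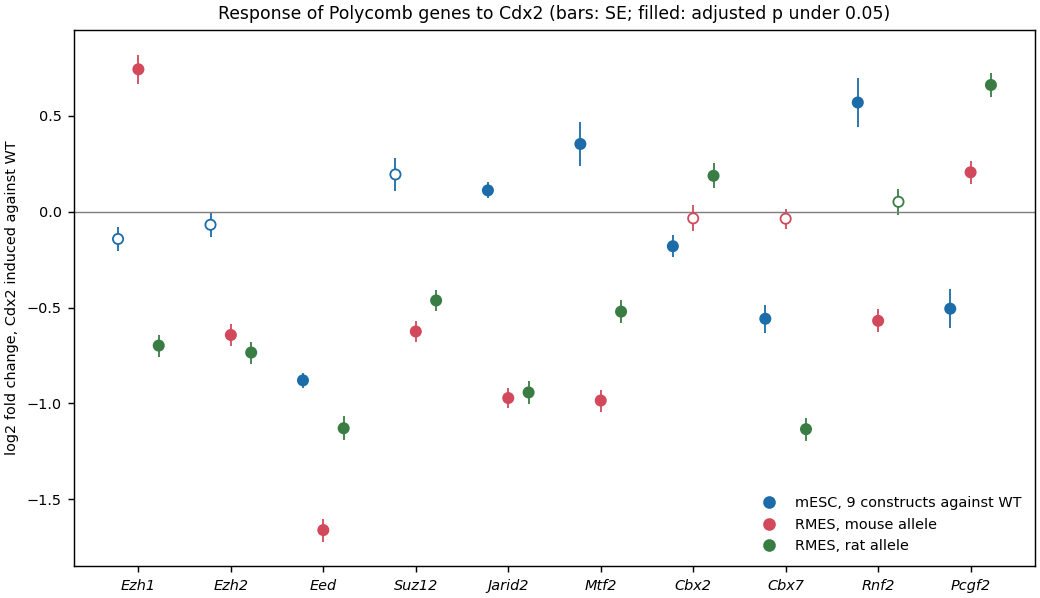
Log2 fold change of each member (y) against WT with its standard error, in the 9 mESC constructs, in the RMES mouse allele and in the RMES rat allele. Filled points have an adjusted p under 0.05 (edgeR). Eed lies below 0 in each column, while Ezh1 lies at 0.74 on the RMES mouse allele and at -0.70 on the rat allele.

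The 3 changes were tested in the complete set of rCdx2 and its 7 mutants (16 libraries). In it 4 of the 8 constructs hold a given change and 4 lack it. The part of differences between the stable lines was not tested. With change 3, 5 members differed, 2 higher and 3 lower, where 36.6% of all genes passed (18.2% higher and 18.4% lower). Ezh1 rose by 35.2% with change 3 (log2 0.43, SE 0.059, adjusted p = 3.3e-05) and Mtf2 by 30.4% (log2 0.38, SE 0.071, adjusted p = 0.00058). Jarid2 fell by 16.3% (log2 -0.26, adjusted p = 3.2e-05), as did Cbx7 (log2 -0.31, adjusted p = 0.00039) and Cbx2 (log2 -0.18, adjusted p = 0.017). Changes 1 and 2 called 0 of 15114 genes in edgeR, with 1995 and 1569 at an unadjusted p under 0.05. DESeq2 also gave 5 members past the test over the 3 changes. This fit averages each change over all 8 constructs, and rCdx2-OE stood apart from every mutant at several members, such as Eed at 120 and 118 CPM in rCdx2-OE, 190.1 and 197 CPM in rCdx2_R1-OE and 201 and 204 CPM in rCdx2_R2-OE. In the 7 mutants alone, a fit added after the values were seen, changes 1 and 2 called none of the members (4 and 0 of 14699 genes, with 1106 and 1423 at an unadjusted p under 0.05, of the members Mtf2 alone for change 2). Change 3 then called 6 members, where 51.8% of all genes passed, with Eed added (log2 -0.27, adjusted p = 1.5e-06) and Cbx2 at a log2 fold change of -0.12 (adjusted p = 0.041).

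The 4 mutants with change 3 and the 3 without it were set apart at several members. Ezh1 ranged from 37.4 to 47.1 CPM (median 42.2 CPM) in the 8 libraries with change 3 and from 28.6 to 32.4 CPM (median 29.6 CPM) in the 6 without it. Mtf2 ranged from 536 to 770 CPM (median 603 CPM) with the change and from 443 to 535 CPM (median 503 CPM) without it. Neither gene overlapped between these sets, although for Mtf2 the gap was under 1 CPM. The same held for Jarid2, at 321 to 354 CPM with change 3 and 392 to 406 CPM without it. It also held for Cbx7, at 157 to 202 against 206 to 231 CPM, and for Eed, at 158 to 171 against 185 to 204 CPM. The share of all genes that kept these sets apart was not counted, and change 3 called 51.8% of all genes in the fit of the mutants alone. Eed did not pass the test of change 3 with rCdx2-OE in the fit (log2 -0.10). Cbx2 overlapped between mutants with and without the change in replicate 1 (log2 ratio -0.11) and not in replicate 2 (log2 ratio -0.10). The Cdx2 level moved with change 3 as well. It was 61.9 to 94.4 CPM with change 3 against 145 to 147 CPM without it in the mutants of replicate 1, and 37.2 to 44.3 against 60.6 to 68.8 CPM in replicate 2, and its part in these differences was not tested.

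The Hox genes were the reference for these comparisons. Of 39 Hox genes, 35 were tested, of which 29 rose over the 9 constructs, 28 of them over 2-fold, and none fell in edgeR, while 6 did not pass. The count was 9 of 10 tested for the Hoxa cluster, 4 of 8 for Hoxb, 9 of 9 for Hoxc and 7 of 8 for Hoxd. Those with the highest level in induced cells were Hoxa7, at a mean of 0.673 CPM in WT and 15.8 CPM in induced cells (log2 4.42), Hoxa9, with 2 counts in each WT library and a mean of 14.9 CPM in induced cells, Hoxc13 (3.30 and 8.58 CPM, log2 1.35) and Hoxb9 (2.03 and 7.17 CPM, log2 1.74). Reads that match several Hox genes may be missing from these counts, which was not tested.

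The summed Hox level was set beside the members' levels in each library. It was 13.7 and 14.4 CPM in WT, 70.9 to 82.3 CPM in mutants with change 3, 86.4 to 110.1 CPM in mutants without it, and 113 to 148 CPM in mCdx2-OE and rCdx2-OE. WT thus had the lowest Hox level and the highest Eed, and mCdx2-OE and rCdx2-OE the highest Hox level and the lowest Eed. Within the mutants the order was another, as those with change 3 were lower both in Hox and in Eed. Cbx2 and Cbx7 were higher in mCdx2-OE and rCdx2-OE, with the most Hox counts, than in the mutants, with the exception of Cbx7 in replicate 2, where the 2 sets overlapped. Because the libraries fall into these separate sets of fewer than 6 per replicate run, a relation between a member and the Hox level within a set could not be tested and no correlation is given.

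**Figure D3:**
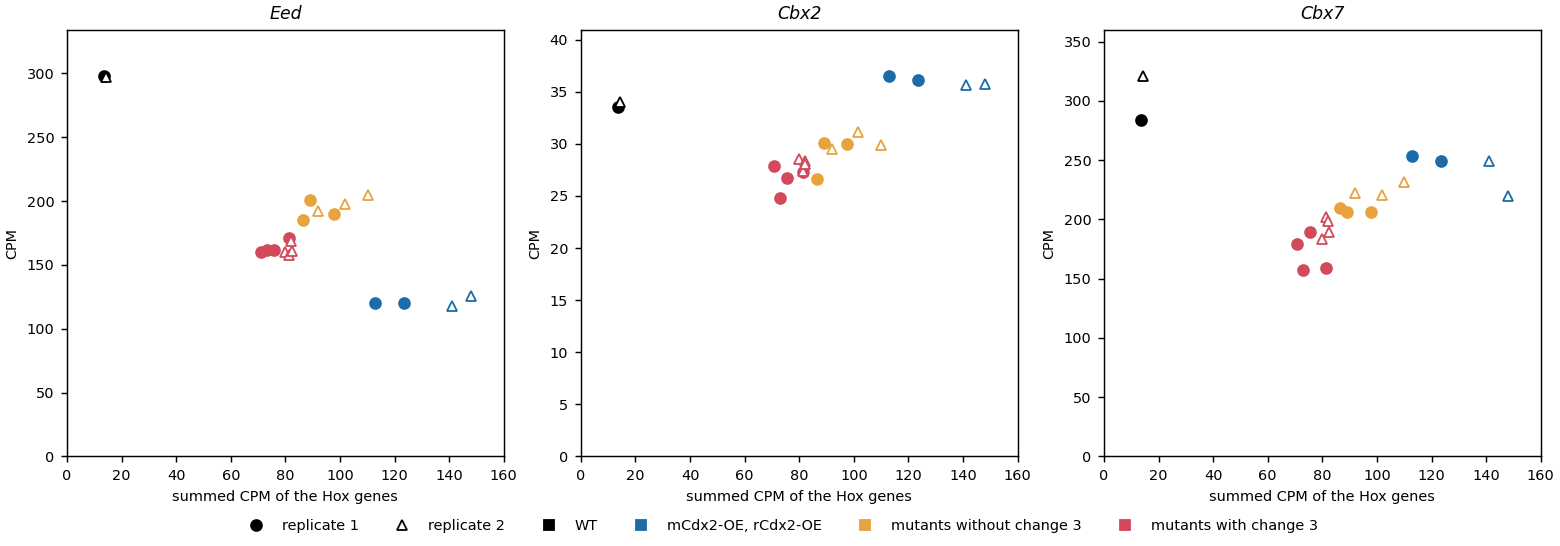
Level of Eed, Cbx2 and Cbx7 in CPM (y) against the summed CPM of the Hox genes (x) in each mESC library, with circles for replicate 1 and triangles for replicate 2, and colours for WT, mCdx2-OE and rCdx2-OE, and mutants with and without change 3. WT lies at 13.7 and 14.4 CPM of Hox with Eed at 298 and 297 CPM, mCdx2-OE and rCdx2-OE at 113 to 148 CPM of Hox with Eed at 118 to 126 CPM, and the mutants form 2 sets between them.

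Other Polycomb genes were taken from a list of 35 further subunits and of enzymes that remove the marks, chosen with earlier results of these data known. Of 34 tested, 28 passed over the 9 constructs (16 higher and 12 lower, 5 of the former over 2-fold), a share near the 74.7% of all genes, with a median log2 fold change of 0.18 against -0.02 for all genes. Among 7 other PRC2 subunits 3 rose and 3 fell, and among 21 other PRC1 subunits 12 rose and 6 fell. Of 4 genes of the H2A deubiquitinase 2 fell, and the 2 demethylase genes Kdm6a and Kdm6b went 1 in each direction. Among the rises were Phf19, a Polycomb-like relative of Mtf2 (mean 4.85 CPM in WT and 13.4 CPM in induced cells, log2 1.46), Bmi1, the Pcgf paralogue of Pcgf2 (17.4 and 44 CPM, log2 1.33), and Yaf2, a subunit of PRC1 without Cbx proteins (4.84 and 12.3 CPM, log2 1.29). The largest falls were in L3mbtl2 (231 and 119 CPM, log2 -0.97), Kdm2b, which binds unmethylated CpG (162 and 83.9 CPM, log2 -0.95), the PRC2 partner Epop (log2 -0.94) and the polyhomeotic subunit Phc1 (560.2 and 301 CPM, log2 -0.92). With change 3, 13 of the 34 passed, 1 higher and 12 lower, where 36.6% of all genes did.

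In RMES cells the same genes were measured on 2 alleles in 1 nucleus. WT RMES cells already held Cdx2 reads, at 129 and 127 CPM on the mouse and at 453 and 439.6 CPM on the rat allele, so that the control was not free of Cdx2. The mCdx2-OE library had 968 CPM on the mouse and 47.2 CPM on the rat allele, and the rCdx2-OE library 4.45 and 879.8 CPM. Summed pluripotency markers were at 7045 to 7138 CPM in WT and 2744 to 2788 CPM in induced cells on the mouse allele, and at 4182 to 4252 and 1448 to 1556 CPM on the rat allele. Proliferation markers went from 5448 to 5562 CPM to 3384 to 3494 CPM on the mouse allele, while the trophoblast markers other than Cdx2 went from 165 to 174 CPM to 332 to 357 CPM on the mouse allele and from 33.1 to 35.5 CPM to 193 to 220.1 CPM on the rat allele. Their part in the changes of the members was not tested.

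On the mouse allele 8 of 10 members passed the test, 2 higher and 6 lower, where 81.9% of all genes passed (42.8% higher and 39% lower). Under scaling by total counts, which moved the median of all genes from 0.08 to 0.50, the split was 4 higher and 6 lower, against 58.4% and 24.9% of all genes. Eed had the largest fall of the members, with 267 and 267 CPM in WT, 87.8 CPM in mCdx2-OE and 81.2 CPM in rCdx2-OE (3.16-fold, log2 -1.66, SE 0.060, adjusted p = 8.3e-11). Jarid2 was at 737 and 745 CPM in WT and at 382 and 373 CPM in induced cells (log2 -0.97), and Mtf2 at 365 and 377 CPM against 189 and 186 CPM (log2 -0.99). Ezh2 (log2 -0.64), Suz12 (log2 -0.62) and Rnf2 (log2 -0.57) also fell. Ezh1 rose from 21.8 and 21.6 CPM to 35.6 and 37.1 CPM (log2 0.74, SE 0.077, adjusted p = 1.4e-06), and Pcgf2 rose from 83.2 and 75.8 CPM to 90 and 93.2 CPM (log2 0.21, adjusted p = 0.0070), a call lost without WT replicate 2. Cbx2 (log2 -0.03) and Cbx7 (log2 -0.04) did not pass, and scaling by total counts gave them log2 fold changes of 0.39 and 0.38. WT and induced libraries did not overlap for the 8 genes that passed. They did not overlap for Cbx7 either, at 142 and 144 CPM in WT and 139 and 140 CPM in induced cells. How many of all genes lacked an overlap was not counted.

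On the rat allele 9 of 10 members passed the test, 2 higher and 7 lower, where 82.5% of all genes passed (43.5% higher and 39% lower). Eed was at 108 and 106 CPM in WT and at 50.6 and 47.6 CPM in induced cells (log2 -1.13, adjusted p = 2.0e-10). Cbx7 was at 171 and 167 CPM in WT and at 74.2 and 79.6 CPM in induced cells (log2 -1.13, adjusted p = 1.2e-10). Ezh1 was at 151 and 147 CPM in WT and at 90.4 and 93.6 CPM in induced cells (log2 -0.70). The induced libraries of all 3 genes lay far below WT, in contrast to Cbx7 and Ezh1 on the mouse allele. Jarid2 (log2 -0.94), Ezh2 (log2 -0.73), Mtf2 (log2 -0.52) and Suz12 (log2 -0.46) also fell. Pcgf2 rose from 58.4 and 56.0 CPM to 90 and 90.9 CPM (log2 0.66), Cbx2 rose less (log2 0.19, adjusted p = 0.016, a call lost without either WT library), and Rnf2 did not pass (log2 0.05, adjusted p = 0.48).

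The response of the alleles differed for 8 members in the test of allele by induction, which 62.1% of genes passed (30.3% higher and 31.8% lower on the mouse allele). The log2 fold change was higher on the mouse than on the rat allele by 1.42 for Ezh1 (adjusted p = 8.2e-16) and by 1.07 for Cbx7 (adjusted p = 9.5e-15). It was lower on the mouse allele for Rnf2 (difference -0.64), Eed (-0.56), Mtf2 (-0.49), Pcgf2 (-0.48), Cbx2 (-0.25) and Suz12 (-0.19). Ezh2 (0.07, adjusted p = 0.25) and Jarid2 (-0.05, adjusted p = 0.19) did not pass.

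The mouse share of each gene's counts is not scaled between the tables, and that of all counts was 56.1% and 56.3% in the WT libraries and 50.7% and 50.6% in mCdx2-OE and rCdx2-OE. The shares below are read beside this shift. The share of Ezh1 was 14.6% (95% Wilson interval 13.6 to 15.6%) and 15.0% in the WT libraries, and 30.6% (29.3 to 31.9%) and 30.2% in mCdx2-OE and rCdx2-OE. That of Cbx7 went from 49.6% and 50.9% to 67.7% and 65.8%. Eed went the other way, from 74.5% and 75.0% to 66.0% and 65.1%, and so did Rnf2, from 65.4% and 67.0% to 53.9% and 54.4%. Ezh2 was at 62.1% and 62.0% in WT and at 62.2% and 61.4% in induced cells. In these genes other than Ezh2 the WT and induced shares did not overlap. The intervals cover counting error only. Gene models differ in length between the species, with 7440 bases for mouse and 4245 bases for rat Ezh1, so that a share below 50% does not give the allele with the lower level.

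**Figure D4:**
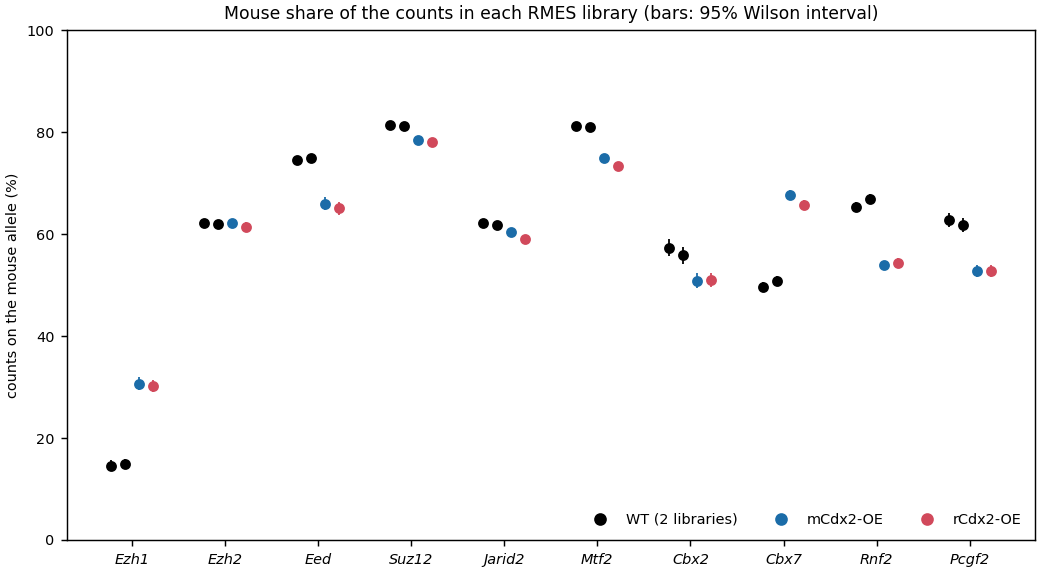
Mouse share of the counts of each member in percent (y) in the 4 RMES libraries, with 95% Wilson intervals that cover counting error only. Ezh1 moved from 14.6% and 15.0% in WT to 30.6% and 30.2% in induced cells, while Ezh2 stayed between 61.4% and 62.2%.

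The difference between cells was tested in 1 fit of the WT, mCdx2-OE and rCdx2-OE libraries of mESCs and of the RMES mouse allele, a comparison added after the values were seen. Cell, assay run and way of counting cannot be told apart in it. The response differed for 8 members, where 53.2% of genes passed (27.5% higher and 25.7% lower in RMES cells). It was lower in RMES cells for Jarid2 (difference of log2 fold changes -1.23, adjusted p = 2.6e-07), Mtf2 (-1.19), Rnf2 (-0.85), Suz12 (-0.68), Eed (-0.40) and Ezh2 (-0.37), and higher for Ezh1 (0.96) and Pcgf2 (0.57). Cbx2 (-0.16) and Cbx7 (0.24) did not pass. Under scaling by total counts, where the median of all genes was 0.33, 3 members were higher and 4 lower in RMES cells. Of all genes, 37.4% were then higher and 16.7% lower. Eed was thus lower than WT in both cells and on both alleles, whereas Jarid2 rose in mESCs with mCdx2-OE and rCdx2-OE and fell on both RMES alleles. The Hox genes also differed, since the summed Hox level was 13.7 to 14.4 CPM in WT mESCs but 263 to 266 CPM on the mouse allele of WT RMES cells, where it was 104 to 112 CPM after induction. On that allele 9 Hox genes rose and 17 fell of 33 tested, and on the rat allele 13 rose and 5 fell of 24 tested. Of the other Polycomb genes, 32 of 34 passed on the mouse allele (17 higher and 15 lower, median log2 0.14 against 0.08 for all genes) and 28 of 32 on the rat allele (17 higher and 11 lower, median 0.25 against 0.07).

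Chromatin accessibility was measured by ATAC-seq in 1 WT and 1 mCdx2-OE library of mESCs, so differences have no replicate check. All 10 members had an accessible peak within 1 kb of the start site. The log2 ratio of mCdx2-OE to WT there ran from -0.46 at Ezh1 to 0.69 at Ezh2 and Eed at GENCODE start sites. Its median was 0.20 against 0.31 for all genes. Over reads summed across the members the log2 ratio was 0.29, and 0.72 without scaling of the libraries. No member changed over 2-fold, where 9.61% of genes gained and 3.66% lost over 2-fold. At the RefSeq start of Cbx7 the ratio was -0.76 (0.09 at the GENCODE start), and at a second RefSeq start of Mtf2 it was -0.75. Eed had the largest fall in RNA of the members. Its gain in accessibility was close to that of Ezh2 and lay at the 77.7th percentile of all genes with a peak. Of 34 Hox genes with a peak, 8 gained over 2-fold, and their median was 0.44.

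Binding of Cdx2 was read from Flag ChIP-seq peaks called on merged reads of mCdx2-OE and rCdx2-OE cells, so that a peak has no replicate of its own. Among the members 1 of 10, Jarid2, had a peak within 1 kb of the start site, with 114 reads and its centre at -618 bases from it, against 7.07% of all genes and 12 of 39 Hox genes. This start site is that of GENCODE, and at the nearest RefSeq start sites of 9 members, with no entry for Cbx2, the count was 0, while a second RefSeq start of Mtf2 had a peak. Within 5 kb the count was 4 of 10 against 28.5% of all genes. In the 60 kb window centred on the start site 8 of 10 members had a peak, against 76.3% of all genes, and none was found at Cbx2 or Cbx7. Eed, the member with the largest fall, had no peak within 1 kb of its start.

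The strongest peak was that of Mtf2, which had 7 peaks in the window in mESCs and 6 on the mouse genome of RMES cells. It spans chr5:108093057-108094252 (1196 bases), 27980 bases into the gene, and covers coding exons 8 and 9 with parts of introns 7 to 9. With 1450 reads against a median of 88 over all 91665 mESC peaks it was at the 99.97th percentile, and the overlapping RMES peak held 805 reads against a median of 78. It contains 5 matches to TTTATG on either strand, 3 of them in the stretch printed above, and its accessibility had a log2 ratio of 0.94. The Jarid2 peak in intron 2 (chr13:44743015-44743657, 643 bases) held 248 reads and had 1 match. Its accessibility had a log2 ratio of 1.52, on low scaled counts of 11.8 in WT and 35.6 in mCdx2-OE. The motif was present in the central 300 bases of 49.8% of all mESC peaks. It was present in 11.9% of the 32544 RefSeq promoters (250 bases before to 50 after the start) and in 0 of 11 promoters of 9 members, with no entry for Cbx2. The promoters of the members had a median of 24 CpG against 7 for all promoters, and a GC content of 62.7% against 53%.

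**Figure D5:**
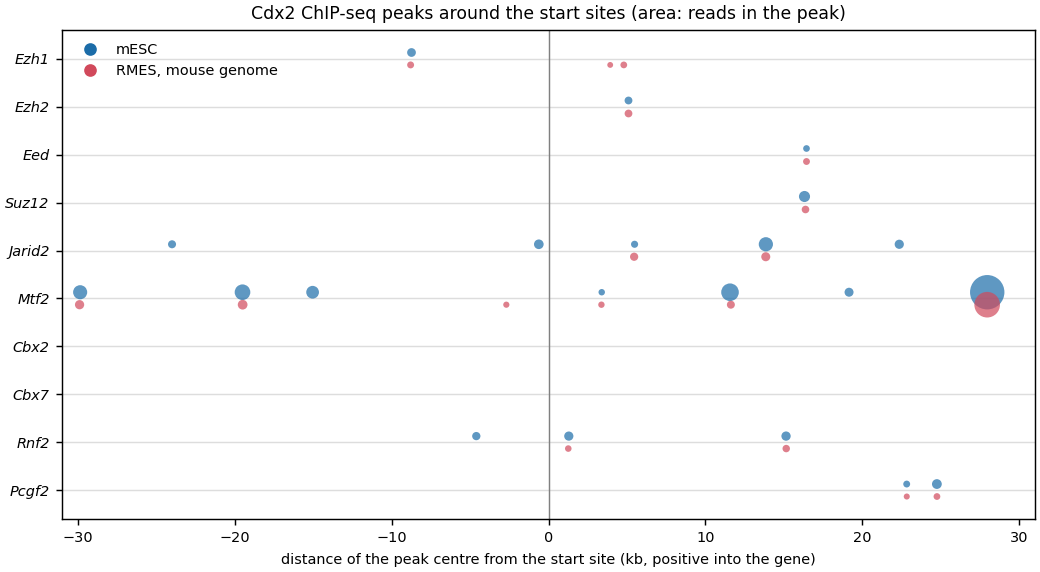
Cdx2 ChIP-seq peaks around the start site of each member, as the distance of the peak centre from the start in kb (x, positive into the gene), with dot area in proportion to reads, blue for mESCs and red for the mouse genome of RMES cells. The largest dots lie 27980 bases into Mtf2, and Cbx2 and Cbx7 have none.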

How the data were processed

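The authors aligned mESC read pairs to mm10 with STAR 2.7.0d and deposited raw counts per gene, counted by strand with featureCounts on an Ensembl annotation without pseudogenes, each replicate in a run of its own. RMES reads were assigned to mm10 or rn6 by edit distance, and the deposited counts give each allele a table. ATAC-seq and ChIP-seq reads were aligned with Bowtie2 2.3.4.3 and counted in MACS2 peaks called on merged reads.

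Counts were tested with edgeR 4.0.16 (quasi-likelihood, TMM, filterByExpr, Benjamini-Hochberg over all genes tested, threshold 0.05) in R 4.3.3, with limma 3.58.1. The test was also run on simulated counts, drawn independently for each library. They hold no differences between runs or lines, so this check does not cover such differences. All 20 mESC libraries entered 1 fit with group as its term, the changes used 16 libraries, and the allele difference had the library as a block. Standard errors came from the fold change and F. DESeq2 1.42.0, other scalings and filters, a replicate block and leaving out each library were alternatives. Depth was 12698443 to 94686029 counts in mESCs, 36166038 to 41418817 on the RMES mouse and 29453412 to 35249756 on the rat allele. Replicates varied by 2.40 to 7.64 times the variance of read sampling. Same-numbered libraries did not deviate together in all pairs of groups, so replicate numbers were not taken as pairs. ATAC-seq libraries were brought to their common mean total, with 1 added before logarithms. Peak reads are the sum of both ChIP-seq libraries. GENCODE on GRCm38 (mm10) gave the gene positions. Rat-genome ChIP-seq peaks were not used here. Tables were handled in Python 3.11.15 (pandas 2.3.3, numpy 2.4.6, scipy 1.17.1), and plots drawn with matplotlib 3.10.9.

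All 10 members were named. Of the other Polycomb genes, the 4 highest and 4 lowest log2 fold changes past the test over the 9 constructs were to be named, of which 1 is not reported here, and of the Hox genes the 4 with the highest mean CPM in induced cells. Members and lists were chosen with earlier results of these data known.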

Additional observations from a re-analysis of the deposited data

Results flagged for a closer look

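The response to Cdx2 in RMES cells differed between the alleles for 8 members in the test of allele by induction (edgeR, library as a block). The difference of log2 fold changes, mouse minus rat, was 1.42 for Ezh1, 1.07 for Cbx7, -0.64 for Rnf2, -0.56 for Eed, -0.49 for Mtf2, -0.48 for Pcgf2, -0.25 for Cbx2 and -0.19 for Suz12. The calls of Cbx2 and Suz12 were lost without WT replicate 1.

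The response also differed between cells for 8 members, taken as RMES mouse allele minus mESC. The difference of log2 fold changes was 0.96 for Ezh1, 0.57 for Pcgf2, -0.37 for Ezh2, -0.40 for Eed, -0.68 for Suz12, -0.85 for Rnf2, -1.19 for Mtf2 and -1.23 for Jarid2. With scaling by total counts 3 members were higher and 4 lower in RMES cells, against 37.4% and 16.7% of all genes. This comparison was added after the values were seen, and cell, run and way of counting cannot be told apart in it.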

How the results depend on the processing

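Leaving out 1 library moved the number of members past the test to 4 to 9 for the 9 constructs against WT (4 without WT replicate 2) and to 3 to 7 for mCdx2-OE against WT (3 without WT replicate 2), the only tested counts to move over 1.5 times. Calls lost without 1 library included Cbx2, Jarid2 and Mtf2 over the 9 constructs. The block of the replicate numbers gave 8 members for the 9 constructs, with Ezh1 added, and 6 for mCdx2-OE. The correlation of same-numbered deviations ran from -0.324 to 0.836 over 45 pairs of groups and was over 0.1 in 22. The permutation test planned across the 9 induced libraries of each replicate mixes the separate sets of constructs and is void as a test of a relation to the Hox level. It counted 1 member (Cbx2), 2 with the summed CPM (Cbx2 and Cbx7) and 3 with total counts (Cbx2, Cbx7 and Jarid2). Without the 2 libraries of each replicate farthest from the median Hox level, it counted Eed alone and no longer Cbx2. The direction for Eed was then turned from negative to positive in both replicates. The ATAC log2 ratio of reads summed across the members was 0.72 without scaling and 0.29 with it. Members with a Cdx2 peak at the start were 4 within 5 kb and 0 at the RefSeq start nearest to that of GENCODE. Values that changed sign are log2 fold changes. With total counts they were Ezh2 over the 9 constructs (0.042), Cbx2 and Cbx7 on the RMES mouse allele (0.39 and 0.38, both then past the test) and Cbx2 between cells (0.11). With a filter at a mean of 1 CPM they were Cbx2 (0.016) and Cbx7 (0.014) on the mouse allele, without any filter Suz12 in mCdx2-OE (-0.020), and without mCdx2-OE and rCdx2-OE Ezh2 over the constructs (0.0091). Leaving out 1 library gave both signs for Suz12 in mCdx2-OE (-0.19 to 0.17), Rnf2 in mCdx2-OE (-0.046 to 0.49), Rnf2 on the rat allele (-0.042 to 0.14) and Cbx2 on the mouse allele (-0.097 to 0.011). The cause was not tested. Among single genes under other settings, 354 values kept direction and side of the threshold, 13 gained and 15 lost the call and 8 turned. The 2 libraries a group limit what differences can be seen.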
